A study of Drosophila melanogaster with 3 samples.

Results

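The piRNA pathway genes described here are the 9 fruit fly genes piwi, Panx, aub, AGO3, vas, tud, tej, rhi and cuff, chosen by name from 13968 protein-coding genes of the Ensembl annotation. For each gene, the summits of every listed region in the gene body or within 2 kb of either end were collected. The regions came from chromatin immunoprecipitation followed by sequencing (ChIP-seq) of the heterochromatin protein Su(var)3-7 in whole Drosophila melanogaster embryos. All samples belonged to 1 group of 3 biological replicates: embryos of both sexes, collected 0 to 24 h after laying, from 1 transgenic line that stably expressed Su(var)3-7 with GFP at its C terminus, with chromatin sonicated and precipitated by an antibody against GFP. The labels name the antibody both as anti-GFP and as Su(var)3-7, and the former is given here. They do not name the promoter of the transgene, and no second strain or untagged sample was compared here. Whole embryos mix germ cells with all somatic cells, so a region used in few cells and a weak region used in many cannot be told apart. Peak lists hold no expression values, so the makeup of the embryos could not be checked against marker genes.

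Each of the 3 replicates had a list of 30000 regions, as had the 3 replicates pooled, and 4055 peaks passed the authors' reproducibility threshold. All of them were also in the pooled list, where they held the top 4055 ranks. The signal of a region is the authors' own value, on a scale that is not stated, so it is given here with its rank in the list or divided by the median signal of that list. The lowest thresholded signal was 118.8 and the median of the pooled list 52.9. Each list stops at 30000 regions, the weakest pooled one at 0.633 times the pooled median, and a gene without a listed region has no value here, which is not a measure of absence. Read depth is unknown.

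PIWI-interacting RNAs (piRNAs) are small RNAs that guide Argonaute proteins of the PIWI clade to transposon transcripts in animal gonads. In flies, Piwi acts in the nucleus, where Panx links it to histone methylation at its targets. Aub and AGO3 cut transcripts in the cytoplasm and amplify piRNAs in the ping-pong cycle, in granules (nuage and germ plasm) whose components include the RNA helicase Vas and the Tudor-domain proteins Tud and Tej. Rhi, a germ line relative of the heterochromatin protein HP1, and its partner Cuff allow transcription of the clusters that give rise to piRNAs. Most of these proteins are known for their roles in the ovary, and several are loaded into the egg.

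The 4 sequences below were read from the RefSeq Release 6 (dm6) genome. They show the DNA under the AGO3 and vas peaks and just upstream of the start of piwi, which had a weaker region. Beside these stands the DNA upstream of aub, which had no pooled region. Capitals mark matches to the motifs searched, CAGCTG (E-box), TATAAA (the TATA box) and TCAGTT (initiator), on either strand; in the aub sequence the initiator was matched on the opposite strand. The AGO3 window is chr3L:23580632-23580832, plus strand, in an AGO3 intron. The vas window is chr2L:15068079-15068278, plus strand, in an intron of vas that also holds a start site of vig. Its TATAAA lies more than 100 bp from the summit of the peak. The piwi window is chr2L:10987436-10987636, minus strand, between genes. It lies wholly upstream of the piwi start site, as does the TCAGTT marked in it. The aub window is chr2L:11001477-11001676, minus strand, the sequence just upstream of the outermost aub start site.
AGO3 peak: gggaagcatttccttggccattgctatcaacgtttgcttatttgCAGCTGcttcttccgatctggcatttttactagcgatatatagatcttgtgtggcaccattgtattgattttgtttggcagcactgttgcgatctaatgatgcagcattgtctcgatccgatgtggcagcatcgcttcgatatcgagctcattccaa
vas intron peak: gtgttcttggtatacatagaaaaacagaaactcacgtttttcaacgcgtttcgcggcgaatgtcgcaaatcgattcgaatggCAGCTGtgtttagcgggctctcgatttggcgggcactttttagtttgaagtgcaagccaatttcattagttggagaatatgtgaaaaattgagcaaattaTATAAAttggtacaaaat
piwi start region: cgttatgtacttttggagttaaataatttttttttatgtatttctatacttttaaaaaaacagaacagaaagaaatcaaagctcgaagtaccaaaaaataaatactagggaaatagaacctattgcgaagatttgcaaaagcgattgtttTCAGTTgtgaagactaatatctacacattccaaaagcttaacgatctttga
aub upstream: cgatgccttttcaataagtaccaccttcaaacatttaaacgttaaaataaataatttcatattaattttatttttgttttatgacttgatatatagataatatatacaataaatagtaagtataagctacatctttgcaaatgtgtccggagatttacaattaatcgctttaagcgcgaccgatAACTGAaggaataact
GC content was 44.3% in the AGO3 window, 39% in the vas window, 28.4% in the piwi window and 27% in the aub window. In the windows of 100 bp on either side of the 4055 thresholded summits it had a median of 38.3%, and the central 90% of them lay between 28.9% and 52.2%. The piwi window, centred on a summit under the threshold, fell below that range, and the AGO3 window, centred on its thresholded summit, inside it. The vas window also lay inside the range and the aub window below it, but neither was cut like the others. The vas window began beside the vig start, with the summit near its edge, and the aub window held no pooled summit.

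Of the 9 genes, 5 had a thresholded summit in the gene body or within 2 kb of it, namely AGO3, vas, tud, tej and cuff, where 32.7% of all protein-coding genes had one. At a start site, meaning within 500 bp of it, 3 of the 9 had a thresholded summit (tud, tej and cuff), against 18.4% of all protein-coding genes. In the pooled list 7 of the 9 had a region in or near the gene, with 73% among all protein-coding genes, and the same 7 had one at a start site, with 51.9% among all. The first of these pooled shares is close to the background. The 2 genes with no pooled region at either place were aub and rhi. The pathway genes were also longer, with a median of 5026 bp against 2164.5 bp over all protein-coding genes, and long genes more often held a peak by the first count. The share of all protein-coding genes with a thresholded summit was 22.8% up to 2 kb of length, the class of cuff and Panx, and 34.5% from 2 to 5 kb, the class of aub and tej. It was 47.0% from 5 to 20 kb, the class of piwi, vas, tud and rhi, and 60.9% over 100 kb, the class of AGO3. The part of gene length in the count of 5 was not tested.

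The counts were similar when the strongest 4055 regions of each replicate were taken in place of the thresholded list. In or near the gene, 6 of the 9 had such a region in replicate 1, 5 in replicate 2 and 5 in replicate 3, or 59.3% ± 6.42 (SD, n = 3), with 33.5%, 32.3% and 33% among all protein-coding genes. At a start site the counts were 3, 3 and 2, or 29.6% ± 6.42 (SD, n = 3), with 18.7%, 17.7% and 18.5% among all. The genes changed with the replicate. Only vas, tud and tej were in or near such a region in all 3 replicates, and only tud had one at its start in all 3. AGO3 missed in replicate 2 and cuff in replicate 1, while piwi was included in replicates 1 and 2 and Panx in replicate 1.

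**Figure D1:**
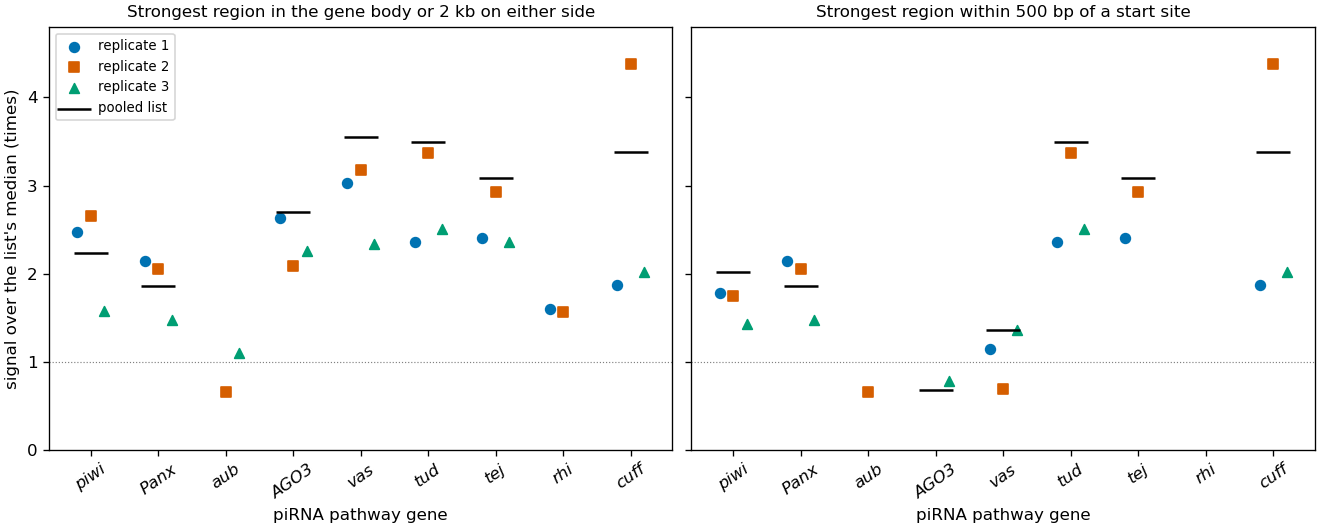
Strongest listed region of each piRNA pathway gene, as signal over the median of its list, in the 3 replicates (symbols) and in the pooled list (bars), for the gene with 2 kb on either side (left) and within 500 bp of a start site (right). No symbol means that no region was listed; tud, tej, vas and cuff reach over 3 in the pooled list, aub and rhi have no bar, and the symbols of cuff are the most spread.

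Piwi and Panx, the 2 genes of nuclear silencing, had regions at their start sites that were listed in every replicate but lay under the threshold. The piwi gene (FBgn0004872) is on the minus strand of 2L, from 10982205 to 10987420. Its start region, chr2L:10987324-10987747, had a pooled signal of 107, rank 4754, with the summit 116 bp upstream. It stood at 1.78, 1.75 and 1.43 times the list median in replicates 1, 2 and 3, or 1.65 ± 0.194 (SD, n = 3), with ranks of 5023, 5633 and 7244. Replicate 3 was the lowest. The region lies between piwi and the divergent gene CG12253, whose start is also within 500 bp of the summit, and the next region, 322 bp upstream of piwi with a signal of 58.9, was 64 bp from the start of CG12253. The strongest region counted for piwi was 1951 bp upstream, at signal 118.1 and rank 4095, just under the lowest thresholded signal. Its summit was 30 bp from the start of TTLL4A, and it was matched by a summit within 200 bp in replicate 2 (2.66 times the median) and replicate 3 (1.36 times) but not in replicate 1. A region in a piwi intron, 1135 bp downstream of the start, had a signal of 100 and rank 5239, and was matched in replicate 1 (2.47 times) and replicate 3 (1.57 times) but not in replicate 2. The inclusion of piwi among the strongest regions thus rested on the intron in replicate 1 and on the region beside TTLL4A in replicate 2.

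Panx (FBgn0034617), which encodes an adaptor acting downstream of Piwi, is on the minus strand of 2R, from 21310368 to 21312354. Its start region, chr2R:21312216-21312639, had a signal of 98.6, rank 5377, with the summit 74 bp upstream. That summit lay 29 bp inside the 5' UTR of the divergent gene CG9485. The replicates gave 2.15, 2.05 and 1.47 times the median, or 1.89 ± 0.367 (SD, n = 3), with ranks of 3534, 4326 and 6859. As for piwi, replicate 3 was the lowest. The other pooled region near Panx, 898 bp upstream, had a signal of 58.0 and was nearest to another CG9485 start.

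The 2 ping-pong genes were unlike each other in these lists. Around aub (FBgn0000146; chr2L:10997819-11001476, minus strand) there was no pooled region and none in replicate 1. Replicate 2 listed 1 region, in a coding exon 463 bp downstream of a start site, at 0.658 times its median. Replicate 3 listed 2 others, in an aub intron at 1.09 times its median and in a coding exon of RpL9 at 0.709 times. No region recurred between replicates, and none reached a rank among the strongest 4055.

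AGO3 (FBgn0250816) is a gene of 135048 bp on the plus strand of 3L, from 23554593 to 23689640, in the pericentric part of the arm taken here as starting at 23 Mb. Mobile elements, 106 of them in the Ensembl annotation, cover 70.5% of the gene. Its thresholded peak, chr3L:23580520-23580943, had a signal of 143 and rank 3009, in an intron 24807 bp downstream of the nearer of its 2 start sites, and lay in no annotated mobile element. It stood at 2.64, 2.09 and 1.99 times the median in replicates 1, 2 and 3, or 2.24 ± 0.349 (SD, n = 3), with ranks of 2418, 4188 and 3786. The 3 summits spanned 44 bp, close to the median span of 46 bp over the 3975 thresholded peaks matched in all replicates. Replicate 2 fell short of the strongest 4055 regions. The start of AGO3, by contrast, had only a region with a signal of 35.8, rank 27597, with its summit 341 bp downstream, and of the replicates only replicate 3 listed a region within 500 bp of it, at 0.785 times its median.

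The rest of AGO3 was filled with weak regions. The pooled list held 50 summits in AGO3 and its margins, the replicates 54, 37 and 52, and the thresholded list 1. Of the 50, 48 were in the gene body, all of these intronic, and 28 of the 48 (58.3%) were inside mobile elements. The median of the 50 was 0.963 times the pooled median, and the strongest after the thresholded peak, 3601 bp downstream of a start site inside mobile elements, stood at 1.71 times. Summits of all 3 replicates matched 14 of the 50 (28%), those of 2 replicates 23, of 1 replicate 12, and 1 was matched in none. This share of 28% is near the 26.7% for all pooled regions under the lowest thresholded signal, and lower than the 36.4% for the whole pooled list. A region 133037 bp downstream of the start, near the far end of the gene, was at 1.85 times the median in replicate 1 and at 2.26 times, rank 2955, in replicate 3, but was not listed in replicate 2. In replicate 3 it exceeded the region at the thresholded peak.

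Per length, AGO3 with its margins held 3.60 pooled summits per 10 kb, against 1.76 on 3L from 23 Mb and 2.46 on 3L before 23 Mb. The replicates gave 3.88, 2.66 and 3.74 per 10 kb in AGO3. On 3L from 23 Mb, which includes AGO3, they gave 1.74, 1.32 and 1.86, and before 23 Mb 2.41, 2.54 and 2.50. AGO3 was the denser stretch in each, but in replicate 2 only slightly above 3L before 23 Mb. For thresholded summits the values were 0.0719 per 10 kb in AGO3, 0.0215 on 3L from 23 Mb and 0.342 before it, with only 1 summit behind the AGO3 value. Among 83 protein-coding genes of at least 100 kb outside chromosome Y, the median density was 0.981 pooled summits per 10 kb, and 9 were denser than AGO3. A thresholded summit was found in or near 53 of these 83 genes (63.9%), so the presence of 1 in AGO3 does not set it apart from other long genes.

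**Figure D2:**
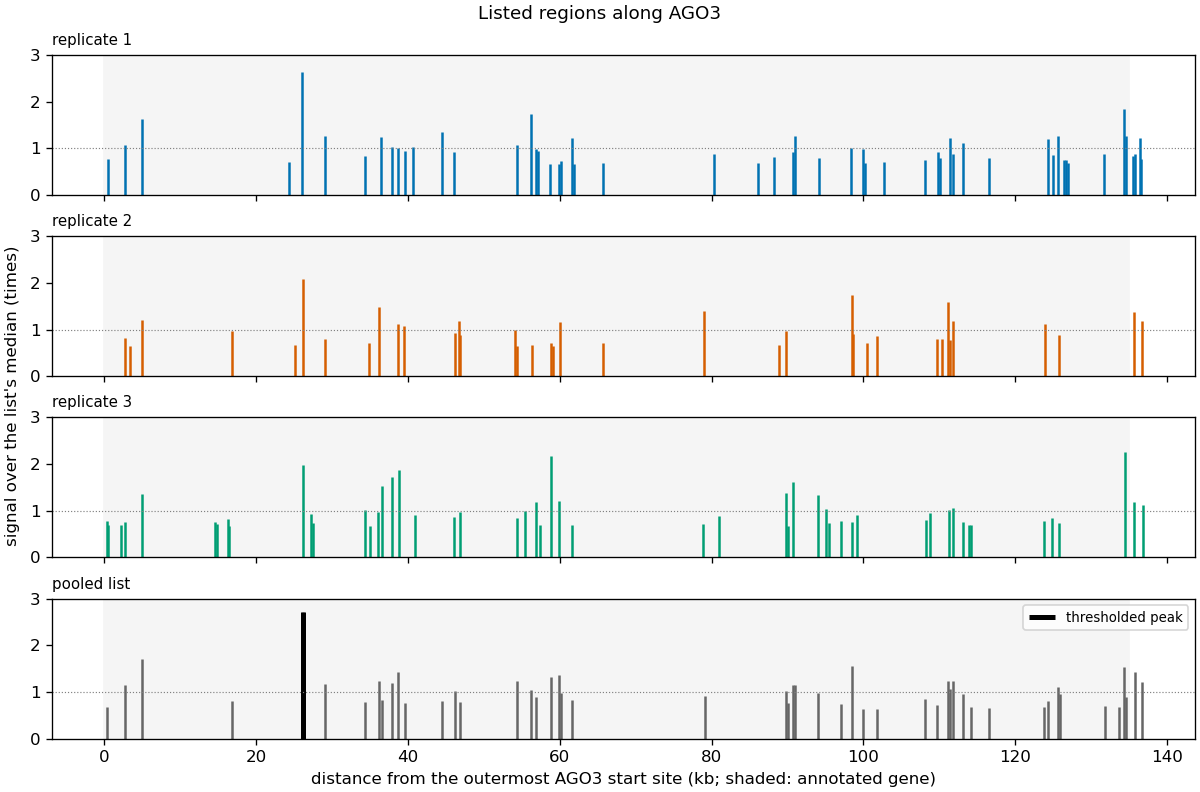
Listed regions along AGO3 in the 3 replicates and the pooled list, as signal over the list median against distance in kb from the outermost start site; shading marks the annotated gene and the thick black bar the thresholded peak. The peak is the highest bar in replicates 1 and 2 and in the pooled list, while replicate 3 has higher bars elsewhere, among many near 1.

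The 3 germ granule genes vas, tud and tej each had a thresholded summit that was among the strongest regions of every replicate, but only tud had it close to its own start. The vas gene (FBgn0283442; chr2L:15061656-15074311, plus strand) encodes a DEAD-box RNA helicase. Its peak, chr2L:15067892-15068315, had a signal of 188 and rank 1890, and its summit lay 6448 bp downstream of the vas start, in an intron shared with solo. The gene vig is nested there on the minus strand, and the summit was 26 bp upstream of a vig start site at 15068078. The replicates gave 3.03, 3.18 and 2.34 times the median, or 2.85 ± 0.447 (SD, n = 3), with ranks of 1863, 2114 and 2770 and summits within 18 bp of each other. The region at the start that vas shares with solo was much weaker, with a signal of 72.1 and rank 8846, 74 bp upstream. It stood at 1.15, 0.688 and 1.36 times the median, or 1.06 ± 0.341 (SD, n = 3), and no replicate's value there reached that replicate's value at the vig start. A further region 823 bp upstream of vas, with a signal of 70.0, was 76 bp from the start of TfIIS.

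The tud gene (FBgn0003891; chr2R:21183322-21192913, plus strand) encodes the founding Tudor-domain protein, a scaffold of the germ plasm. Its peak, chr2R:21183021-21183444, had a signal of 185 and rank 1951, with the summit 89 bp upstream and no other coding start within 500 bp. The replicates gave 2.36, 3.37 and 2.50 times the median, or 2.74 ± 0.544 (SD, n = 3), and ranks of 2961, 1912 and 2468, all among the strongest 4055. In the pooled list tud had the strongest start-site region of the 9 genes, and 9.72% of all protein-coding genes had a stronger one, but cuff was above tud in replicate 2 and tej in replicate 1. Another region in the tud 5' UTR, 111 bp downstream, had a signal of 80.7 and was matched in replicates 2 and 3. A region beyond the far end of tud, in an intron of Lapsyn, had a signal of 110 and rank 4510.

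The tej gene (FBgn0033921; chr2R:14300103-14302353, minus strand) encodes a nuage protein with a Tudor domain. Its peak, chr2R:14302628-14303051, had a signal of 163 and rank 2424, with the summit 487 bp upstream of tej, which was the nearest coding gene. The replicates gave 2.40, 2.93 and 2.36 times the median, or 2.56 ± 0.319 (SD, n = 3), with ranks of 2870, 2445 and 2738. The summit offsets were -475, -482 and -559 bp, so replicate 3 fell outside the limit of 500 bp although its signal was like that of replicate 1. Summits as far out as this were the minority: over the 2089 thresholded summits within 500 bp of a coding start the median offset was -69 bp, and 9.05% lay at -300 bp or farther upstream.

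The 2 genes of cluster transcription differed as the ping-pong genes did. Around rhi (FBgn0004400; chr2R:17628491-17633516, minus strand) the pooled list had no region and neither had replicate 3. Replicates 1 and 2 each listed 1 region in an intron of CG10936, at offsets of -1710 and -1697 bp from the rhi start and at 1.60 and 1.56 times their medians. These summits nearly coincided, yet no pooled region was listed there.

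The cuff gene (FBgn0260932; chr2R:11886067-11887603, plus strand) encodes a protein related to the decapping factor Rai1. Its peak, chr2R:11885496-11885919, had a signal of 179 and rank 2076, with the summit 359 bp upstream of cuff but 123 bp from the start of the divergent gene CG13185. Counted for the nearest gene only, it belonged to CG13185. Replicate 2 gave 4.38 times the median (rank 1226), against 1.88 in replicate 1 (rank 4527) and 2.02 in replicate 3 (rank 3671), or 2.76 ± 1.41 (SD, n = 3). Replicate 2 thus stood apart, and without it the mean was 1.95 ± 0.101 (SD, n = 2). The coefficient of variation was 51.1%, and only 4.03% of the thresholded peaks matched in all replicates had a larger one, whose median was 21.0%. Those of the other peaks were 15.6% for AGO3, 15.7% for vas, 19.8% for tud and 12.4% for tej. The position of the cuff peak was steady, with summits within 27 bp.

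**Figure D3:**
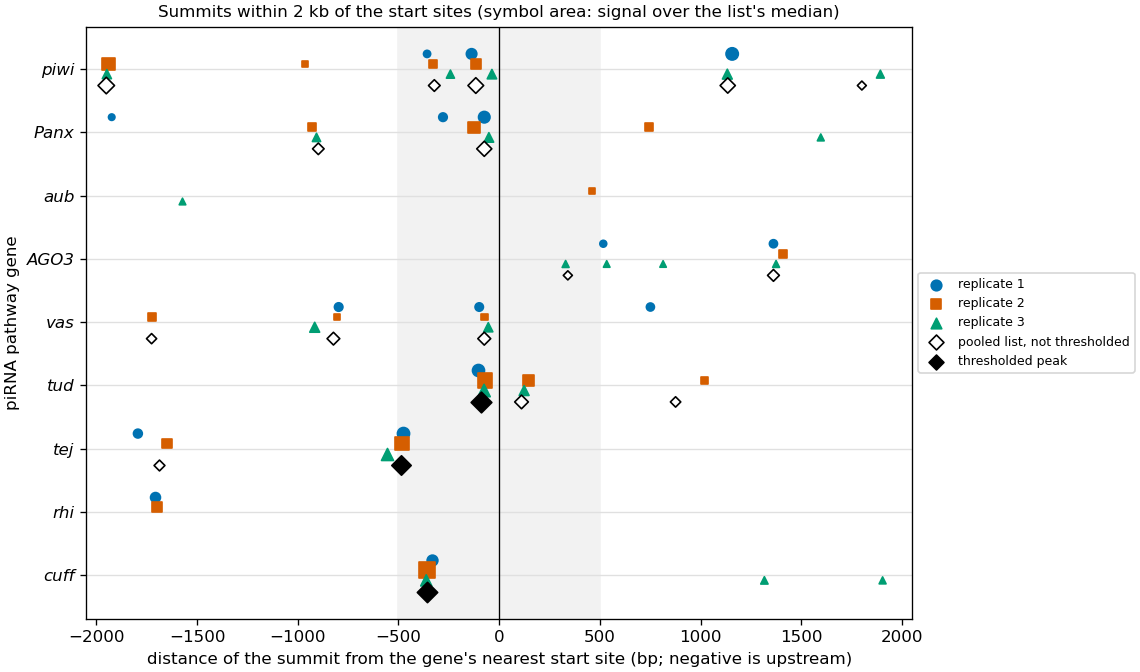
Summits within 2 kb of the start sites of the 9 piRNA pathway genes, in bp from the nearest start site of each gene (negative is upstream), by list; symbol area follows signal over the list median and shading marks 500 bp on either side. Thresholded peaks (filled diamonds) are seen only at tud, tej and cuff, at -89, -487 and -359 bp, and the replicates' summits cluster around them.

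At start sites, the order of the pooled values was tud (3.50 times the median), cuff (3.38), tej (3.09), piwi (2.02), Panx (1.86), vas (1.36) and AGO3 (0.675), with aub and rhi unlisted. Over the 3 replicates, tud, cuff and tej differed by less than their SDs, and piwi and Panx by less than the SD of Panx. Yet each replicate put Panx above piwi (2.15 against 1.78, 2.05 against 1.75 and 1.47 against 1.43), the reverse of the pooled order. Every replicate put the region of tud above those of piwi and Panx, while for cuff this held in replicates 2 and 3 only, since in replicate 1 Panx (2.15) was above cuff (1.88). Among all protein-coding genes, 10.4% had a stronger start region than cuff, 12.0% than tej, 21.1% than piwi, 23.4% than Panx, 32.0% than vas and 50.5% than AGO3. The median over the 7 listed genes was 2.02 times the pooled median, against 1.70 over the 7246 protein-coding genes with a start region. The genes whose start peaks ranked just above and just below were Dgkepsilon and Vps60 for tud, KFase and kmr for cuff, and smid and CG8051 for tej, none of them in the lists of piRNA genes used here.

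**Figure D4:**
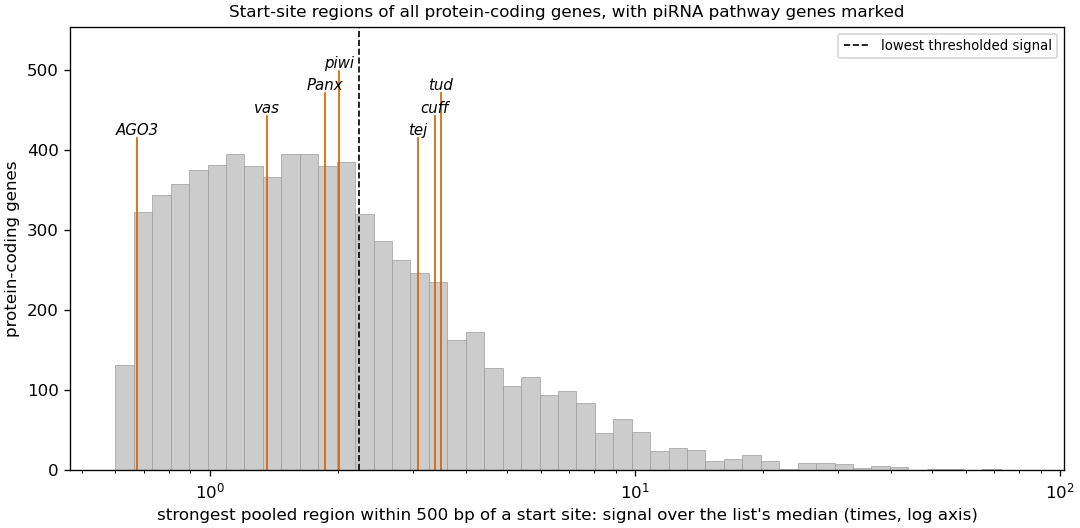
Distribution of the strongest pooled start region over all protein-coding genes that had one, as signal over the list median (log axis), with 7 piRNA pathway genes marked. The tud, cuff and tej lines lie right of the lowest thresholded signal (dashed), those of piwi, Panx, vas and AGO3 left of it, and aub and rhi have no value.

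Promoter sequences, from 250 bp before to 50 bp after each annotated start site, were searched on both strands for 7 motifs, none of which contains another. Promoters are longer than the summit windows of 100 bp on either side, so the shares of promoters and of windows cannot be compared directly. TATCGATA (DRE, the site of the factor DREF) was in the promoters of tej and Panx and within 100 bp of the summits beside both; it occurred in 7.99% of the promoters at all 19630 start sites and in 4.86% of thresholded summit windows. GGTCACAC (Motif 1) was in the piwi promoter and in 6.71% of all. CAGCTG (E-box) was in the Panx promoter and in the windows of the AGO3, vas and Panx summits, and in 17.9% of all promoters and 11.02% of thresholded windows. TCAGTT was in the promoters of piwi, aub and tej and in 26.9% of all. TATAAA was in those of vas, cuff and tej and in 42.2% of all. ACNGTTA, a form of the site of the germ line factor Ovo, was in those of AGO3, rhi and tej and in 12.9% of all. GAGAGAG was in none of the 9 and in 7.63% of all promoters. No motif was shared by the tud, tej and cuff peaks, since the windows of the tud and cuff summits held none of the 7.

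Beyond these 9 genes, 34 further genes of the pathway were counted in the same way. In or near the gene 16 of the 34 had a thresholded summit (47.1%), and at a start site 4 of the 34 did (11.8%), namely papi, bbx, sov and ctp. The share in or near the gene was above the 32.7% of all protein-coding genes, and that at a start site below the 18.4%. As for the 9 genes, the part of gene length in the share in or near the gene was not tested. In each replicate's strongest regions 5 of the 34 (14.7%) had a start-site region, with 18.7%, 17.7% and 18.5% among all protein-coding genes. In the pooled list, 33 of the 34 (97.1%) had a region in or near the gene, the exception being krimp, with 73% among all protein-coding genes. At a start site 22 of the 34 (64.7%) had one, with 51.9% among all.

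The peak of papi, whose product is a mitochondrial Tudor-domain protein of piRNA biogenesis, was the strongest start peak of these genes, with a signal of 479, rank 331 and an offset of -276 bp. It stood at 8.40, 7.57 and 7.15 times the median, or 7.71 ± 0.632 (SD, n = 3), so each replicate's value was above every start-site value of the 9 genes. That of bbx, an HMG-box gene, ranked 356 with a signal of 465 and averaged 7.31 ± 1.30 times the median (SD, n = 3). That of sov, which encodes a zinc-finger protein linked to HP1, had a signal of 176 and rank 2134. The sov values were 0.946, 3.31 and 2.84, or 2.37 ± 1.25 (SD, n = 3), with replicate 1 the low one. That of ctp, the dynein light chain that also joins the Panx complex, was close to the threshold (signal 119.0, rank 4041) and averaged 1.84 ± 0.642 times the median (SD, n = 3). The papi, bbx and sov peaks lay in introns of their genes, at inner start sites.

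Of the start regions under the threshold, the strongest were those of egg, the histone methyltransferase of the pathway (signal 115.9, rank 4213), Trf2 (108, rank 4672), Su(var)2-10, a SUMO ligase (105, rank 4866), and squ (77.9, rank 7802). The egg region stood at 2.05 ± 0.224 times the median (SD, n = 3). The squ region was equally near to a start site of grp and was matched in replicates 2 and 3 only. A further 12 of the 34 had a thresholded summit only away from their start sites, and for 10 of these the strongest region was nearest to another gene. In the case of Su(var)2-10 it was at the start of GstE13, with a signal of 1452 and rank 29. The strongest region of wde, a cofactor of Egg, was in its own intron 545 bp from a start site, with a signal of 799 and rank 104.

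The piRNA cluster flamenco, annotated as the long non-coding RNA gene lncRNA:flam (chrX:21631891-21790731), is the main source of piRNAs in somatic cells of the ovary. It had a thresholded peak at its start, ranked 1623 with a signal of 206 and an offset of -231 bp, at 2.86, 4.56 and 2.13 times the median, or 3.18 ± 1.25 (SD, n = 3). Another thresholded summit lay at -1855 bp, with a signal of 141. The nearest coding start for both was that of DIP1. Only 3 pooled summits fell in the cluster and its margins, against 50 in AGO3 and its margins. The 2 thresholded ones among the 3 lay outside the annotated cluster. A stretch without listed regions is not a measure of absence. The Su(var)3-7 gene itself had a start peak, also within 500 bp of a Ravus start, that ranked 1430 with a signal of 222 and stood at 4.51, 3.69 and 2.67 times the median, or 3.62 ± 0.923 (SD, n = 3).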

How the data were processed

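Embryos carrying Su(var)3-7-GFP were profiled by ChIP-seq in 3 biological replicates of 1 group, and peak lists were deposited; replicate numbers are those of the labels. Per the inventory texts deposited with the lists, the authors listed relaxed regions for each replicate and for the replicates pooled, each with 1 control file, and derived thresholded peaks from them by their irreproducible discovery rate (IDR). For the aligner, caller, filters and IDR cutoff, names and versions were not given in the sources used here. The deposited signal values are the authors' per-region values on an unstated scale, used as ranks or over the list's median. The deposited summit offset, added to the region start, gave the summit. Read depth is unknown, and the control reads were not analysed here. Lists on build dm3 were not used, since no coordinates were converted; 0 further sample columns were left out.

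All summits lay within the lengths of 7 dm6 chromosome arms, and coordinates are 1-based. Genes, mobile elements and 19630 start sites came from Ensembl release 115 (BDGP6.54), and sequence from RefSeq Release 6. A summit counted for a gene in its body or within 2000 bp, and at a start site within 500 bp, so a summit between close neighbours counted for both. Replicate summits were matched within 200 bp, and the strongest 4055 regions of a replicate stood in for a thresholded list. With 1 group there was no test; shares of all protein-coding genes stand beside the counts, and the means and SDs are over replicates. The counting was tested on simulated data with planted summits. The 9 genes, the 34 others and the motifs were chosen with earlier results of these data known. Genes were named by rule: all 9; of the others those with a thresholded start peak and the 4 strongest without; genes sharing a start region; neighbours in rank; and Su(var)3-7. The wde and GstE13 regions and the further regions around each gene were named after their values were seen. Alternatives were other margins, distances and start sites, the stronger 50% of peaks, and leaving out replicates. Calculations used Python 3.11.15, NumPy 2.4.6 and pandas 2.3.3, and plots matplotlib 3.10.9.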

Additional observations from a re-analysis of the deposited data

How the results depend on the processing

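The count of 5 genes with a thresholded summit in the gene body or 2 kb on either side was 5 with a margin of 1 kb, where 27.4% of all protein-coding genes counted, 6 (aub added) with 5 kb, where 45.7% counted, and 5 with any overlap of the interval. It fell to 2 (AGO3 and vas) with no margin, where 11.2% counted. It was also 2 (vas and tud) among the stronger 50% of peaks, where 19.7% counted, and 3 (vas, tud and tej) for regions among the strongest of all 3 replicates, where 22.99% counted. Leaving out each replicate in turn, with the added demand that a region be among the strongest 4055 of both others, gave 3 to 4, where 25.7% to 26.1% counted. Under that demand vas, tud and tej were kept each time, AGO3 was lost wherever replicate 2 (rank 4188) was used and cuff wherever replicate 1 (rank 4527) was. The pooled count of 7 was 4 with no margin, a rule for which the share of all protein-coding genes was not counted. The count of 3 at start sites was 1 (tud) within 200 bp and 1 (tud) among the stronger 50%, where 13.9% and 10.1% of all protein-coding genes counted. It was 2 (tud and tej) for the nearest gene only, where 13.9% counted. It was also 2 (tud and tej) for regions matched within 200 bp among the strongest of all 3 replicates, where 12.1% counted. By that rule tej counted through its replicate 1 summit, while its replicate 3 summit lay beyond 500 bp. Among the strongest 4055 regions of each replicate, only tud had a summit within 500 bp of its start in all 3. On leaving out replicates in that way the count was 2 to 3, where 13.7% to 14.0% counted. For the 34 other pathway genes, 16 became 7 with no margin and 7 among the stronger 50%, where 11.2% and 19.7% of all protein-coding genes counted. It became 11 to 13 on leaving out replicates, where 25.7% to 26.1% counted. Their 4 at start sites became 8 within 1000 bp and 2 among the stronger 50%, where 21.4% and 10.1% counted. It became 3 to 4 on leaving out replicates, where 13.7% to 14.0% counted. With the outermost start site only it was 1, and the share of all genes was not counted. With a 5 kb margin the strongest region of cuff was at 4.81 in place of 2.76 times the median. No paired analysis was possible because the study has 1 group. Without read depth, weak regions cannot be given an interval.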
